A study of Mus musculus with 3 samples.

Results

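The transporters of amino acids and of related neurotransmitters were examined in mpkDCT4a cells, an immortalised mouse line of the distal convoluted tubule, a segment of the nephron. The members were all protein-coding genes of the solute carrier families SLC1, SLC3, SLC6, SLC7, SLC36, SLC38 and SLC43 by gene symbol, apart from Slc6a6, Slc6a12 and Slc38a2, which were left out by the same rule. They came to 61 of the 55487 genes counted, of which 21974 are protein-coding. One of them, Slc7a6os, carries a family symbol only because it lies next to Slc7a6 and is not known as a transporter, which leaves 60 carriers and carrier subunits. The study has 1 group of mpkDCT4a cells, for which the labels name no genetic change or treatment, with 3 RNA libraries depleted of ribosomal RNA, so no condition was compared. The medium of all libraries was DMEM/F-12 with added glutamine (2 mM), glucose (20 mM), serum (2%), insulin (5 µg/ml), epidermal growth factor (10 ng/ml), dexamethasone (50 nM), transferrin (5 µg/ml), triiodothyronine (1 nM), selenate and HEPES. As a cell line in culture it has neither the tubule lumen nor the neighbouring segments of the kidney. The labels do not say whether the libraries came from separate cultures, so their spread may be technical.

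Amino acids cross cell membranes through carriers that work either with a sodium or proton gradient or by exchanging one amino acid for another. Several exchangers of the SLC7 family are light chains that reach the plasma membrane only when joined by a disulfide bond to a heavy chain of the SLC3 family. In the kidney the proximal tubule takes back most filtered amino acids and holds dedicated apical carriers for it. Many SLC6 carriers and several of SLC1 are known from neurons and glia, where they remove transmitters from the synapse.

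Replicate 1 held 436983 counts, replicate 2 held 482418 and replicate 3 held 443192. Of these the members took 1018, 1186 and 1056 counts, or 0.233%, 0.246% and 0.238%. Levels are in counts-per-million (CPM) as mean ± SD over the 3 libraries, single genes are compared in level with one another per exon length, as transcripts-per-million (TPM), and medians over lists of genes are in CPM. Genes whose mean reached 1 CPM are called detected. Where all 3 libraries had 0 counts, the summed total still allows 2.20 CPM (3 counts), and this limit and the intervals given for ratios take in counting error alone. Of 12 markers of the distal convoluted tubule 5 were detected (Wnk4, Cnnm2, Trpm6, Kcnj10 and Egf), with a summed level of 66.3 to 94.1 CPM. Of all protein-coding genes 50.6% were detected, the share to set beside this and every later count of detected genes. Over the 3 libraries together Wnk4 had 61 counts (45.2 ± 11.2 CPM) and Cnnm2 had 27 (19.8 ± 3.23 CPM). Egf had 3 counts, Kcnj10 had 9 and Trpm6 had 12. The defining cotransporter Slc12a3 and Pvalb, Klhl3, Calb1, Emx1, Sall3 and Tmem52b had 0 counts in every library. The name of the line therefore rests on its label, and these markers give it little support. In bulk RNA fewer cells with a transcript and less of it per cell cannot be told apart.

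The bases in front of a RefSeq start of each heavy chain gene are shown because Slc3a2 was the highest member per length and Slc3a1 had no count. RefSeq (GRCm38.p6) promoters matched 44 of the 61 members. The sequences are the last 60 bases before the RefSeq start on the strand of the gene, with each CG dinucleotide in capitals. They lie at chr19:8713898-8713957 on the minus strand for Slc3a2 and at chr17:85028287-85028346 on the plus strand for Slc3a1. The Slc3a2 stretch lies inside the annotated gene, which begins farther upstream. The bases after this RefSeq start were not found as an unbroken stretch in an annotated transcript of Slc3a2.
Slc3a2: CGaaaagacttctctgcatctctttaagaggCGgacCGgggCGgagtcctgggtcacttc
Slc3a1: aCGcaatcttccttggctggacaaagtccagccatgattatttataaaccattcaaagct
Slc3a2 has 4 CG dinucleotides in these bases, a number reached by 34.0% of all 32851 promoters in the table. Slc3a1 has 1, a number reached by 70.7%, and the median over all promoters was 2. Over the 250 bases before the start the observed over expected CpG ratio was 0.641 for Slc3a2 and 0.513 for Slc3a1, beside a median of 0.373 over all promoters.

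The promoter of Slc7a11, which encodes the cystine/glutamate exchanger, is shown because it holds the C/EBP-ATF element, through which the factor ATF4 is known to act when amino acids are short. The search was for TGATGNAA on both strands, that is TGATGNAA or TTNCATCA, and the matches are in capitals (chr3:50443614-50443863, minus strand).
Slc7a11: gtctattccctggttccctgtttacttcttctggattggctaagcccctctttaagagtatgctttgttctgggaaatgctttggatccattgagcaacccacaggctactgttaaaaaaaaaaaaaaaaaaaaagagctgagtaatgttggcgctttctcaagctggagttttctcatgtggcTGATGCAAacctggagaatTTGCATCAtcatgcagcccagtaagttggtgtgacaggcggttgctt
It holds TGATGCAA and TTGCATCA, which begin 66 and 47 bases before the start and do not overlap. The element occurs in 3.45% of all promoters over the same bases. Among the members it was also found before 2 starts of Slc7a7 and before 1 of Slc6a21. As only 72.1% of members had a promoter in the table, no share over the members is given. A match of letters is a description and not a measured binding site.

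Most transporters in these families had no count, and a few carried most of the reads. 24 of 61 members were detected (39.3%), against 50.6% of all protein-coding genes, and 16 reached 10 CPM (26.2%), against 40.8%. At 100 CPM or more there were 7 members (11.5%), against 12.2%. The 35 members with 0 counts in all libraries made up 57.4% of the members, against 46.0% of all protein-coding genes, and the median over all members was 0 CPM, against 1.46 CPM. Among detected genes alone the medians were 39.8 CPM for the members and 39.6 CPM for protein-coding genes. Slc7a1, Slc3a2, Slc7a5 and Slc7a6 together held 64.1% of the 3260 member counts, with 62.5%, 64.2% and 65.5% in the single libraries. By family, 8 of 16 SLC7 genes, 6 of 10 SLC38 genes, 4 of 19 SLC6 genes, 2 of 7 SLC1 genes, 2 of 4 SLC36 genes, 1 of 3 SLC43 genes and 1 of 2 SLC3 genes were detected.

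**Figure D1:**
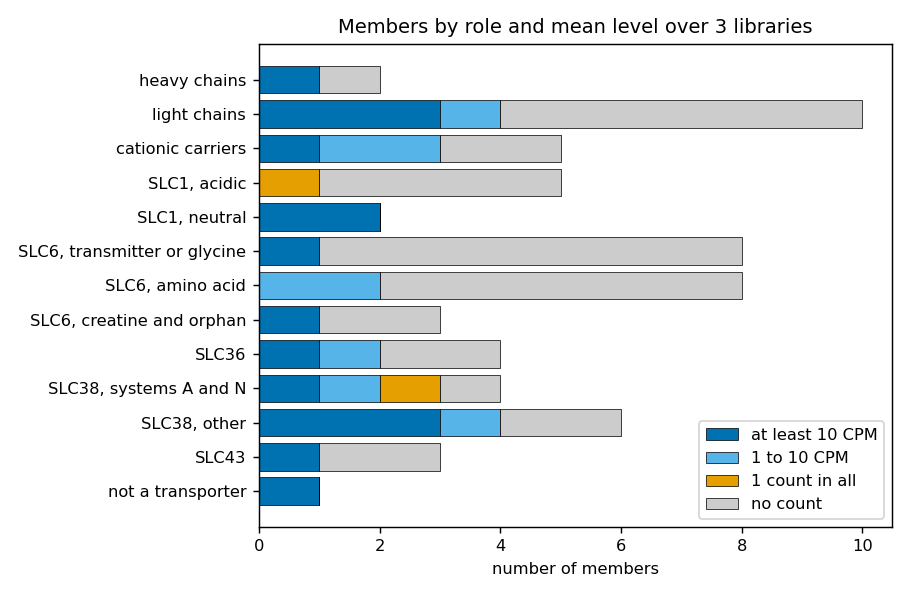
Number of members (x axis) in each role (y axis), coloured by their mean level over the 3 libraries. Both neutral SLC1 exchangers reached 10 CPM, whereas none of the 5 acidic SLC1 carriers was detected and 7 of the 8 SLC6 carriers of transmitters or glycine had no count.

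No member passed a test for differences between the replicates. Of the 24 detected members 0 passed a chi-square test of the counts against library size with Benjamini-Hochberg adjustment over all detected genes, where 5 of 12473 genes, or 0.0401%, passed. Members with few counts in all could not have passed whatever their spread. Among these were Slc38a3 (2 counts), Slc36a4 (3), Slc7a4 (5), Slc6a17 (5) and Slc38a6 (7). 1 member, Slc3a2, had an unadjusted p under 0.05 (chi-square p = 0.0128, adjusted p = 0.902), or 4.17% of those tested, against 4.89% of all genes. An exact multinomial test of genes with up to 300 counts also called 0 members, with 2 at an unadjusted p under 0.05. The median chi-square statistic was 1.93 over the members and 1.45 over all tested genes.

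**Figure D2:**
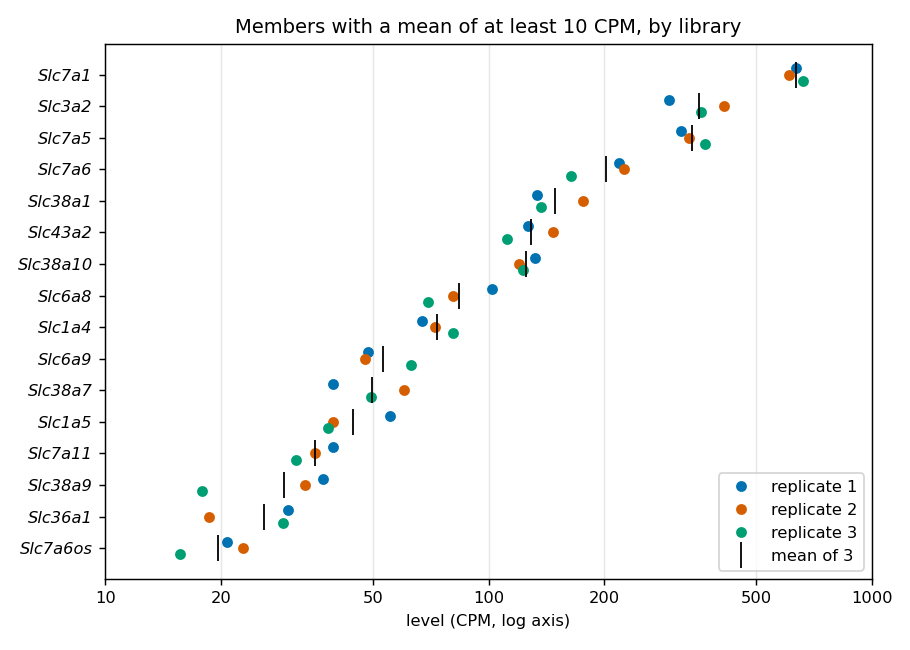
Level in CPM on a log axis (x axis) of the 16 members with a mean of at least 10 CPM (y axis), with 1 point per library and a bar at the mean of 3. Slc7a1 lay between 607 and 661 CPM, more reads than any other member in every library.

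Of the heavy chains, only Slc3a2 was expressed at a level these libraries could detect. Slc3a2 (CD98 heavy chain, ENSMUSG00000010095, GRCm38 chromosome 19, 8706882 to 8723369, minus strand) anchors the light chains for large neutral, cationic and acidic amino acids. It had 128, 199 and 160 counts in replicates 1, 2 and 3, or 295, 412 and 358 CPM, with a mean of 355 ± 58.4 CPM. Replicate 1 was the lowest and replicate 2 the highest. Slc3a1 (rBAT, chromosome 17, 85028376 to 85064236, plus strand), the heavy chain of the proximal tubule carrier for cystine and cationic amino acids, had 0 counts in each library. Slc3a2 was therefore at least 104-fold higher than Slc3a1 per exon length, counting 3 reads over all libraries for the gene at 0. This and the later bounds of this kind leave out the counting error of the higher gene, so the true limits are somewhat lower. The exons of Slc3a1 overlap 601 bases of Prepl on the opposite strand, so its 0 is less certain. Of its 50-base stretches, matched on both strands, 24.8% also occur in another gene, a share that takes in this overlap.

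Among the light chains that pair with Slc3a2, those for large neutral and for neutral and cationic amino acids led. Slc7a5 (LAT1, chromosome 8, 121881150 to 121907694, minus strand), which brings in leucine and other large neutral amino acids in exchange, had 138, 161 and 164 counts, or 318, 333 and 367 CPM (mean 339.7 ± 25.1 CPM). Slc7a6 (y+LAT2, chromosome 8, 106168857 to 106198706, plus strand), which exchanges cationic for neutral amino acids, had 95, 109 and 73 counts, or 219, 226 and 164 CPM (mean 203 ± 34.2 CPM). Per exon length, in TPM, the ranges of these genes did not overlap, and Slc7a5 was above Slc7a6 in each library. Per exon length Slc7a5 had 2.06 times the counts of Slc7a6 (95% exact binomial interval 1.77 to 2.40).

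The kidney epithelial counterparts of these light chains were low or without counts. Slc7a8 (LAT2), a basolateral carrier of kidney and gut, had 0 counts. Slc7a5 was at least 208-fold higher per exon length, or 179-fold per longest transcript. Slc7a7 (y+LAT1), the basolateral carrier of the proximal tubule whose loss causes lysinuric protein intolerance in humans, had 4, 4 and 2 counts (7.33 ± 2.51 CPM), and 232 bases of its exons overlap the expressed gene Oxa1l on the opposite strand. Slc7a6 had 20.1 times the counts of Slc7a7 per length (10.8 to 42.4). The partners of Slc3a1, Slc7a9 and Slc7a13, had 0 counts, as did the small neutral light chains Slc7a10 and Slc7a12 and the aromatic-preferring Slc7a15.

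Slc7a11 (xCT, chromosome 3, 49892526 to 50443614, minus strand), which takes up cystine for glutathione in exchange for glutamate, was present at a lower level. It had 17, 17 and 14 counts, or 39.2, 35.2 and 31.4 CPM, with a mean of 35.3 ± 3.93 CPM. The 3 libraries lay close together. Per exon length this was 9.32 ± 0.926 TPM, because the annotated exons span 13922 bases, and the gene was at least 2.43-fold higher than Slc7a10.

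Set against one another per length, the heavy chain was below the sum of its light chains in every library. Slc3a2 was at 303, 433 and 377 TPM, and Slc7a5, Slc7a6, Slc7a7, Slc7a8, Slc7a10 and Slc7a11 summed to 506, 535 and 514 TPM. The ratio of heavy to light chains was 0.60, 0.809 and 0.733 (mean 0.714 ± 0.106, n = 3). Slc7a5 made up 61.6%, 62.3% and 71.6% of the light chain sum, Slc7a6 34.4%, 34.2% and 25.8%, and Slc7a11 2.02%, 1.75% and 1.63%. These are ratios of transcripts, and protein was not measured.

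**Figure D3:**
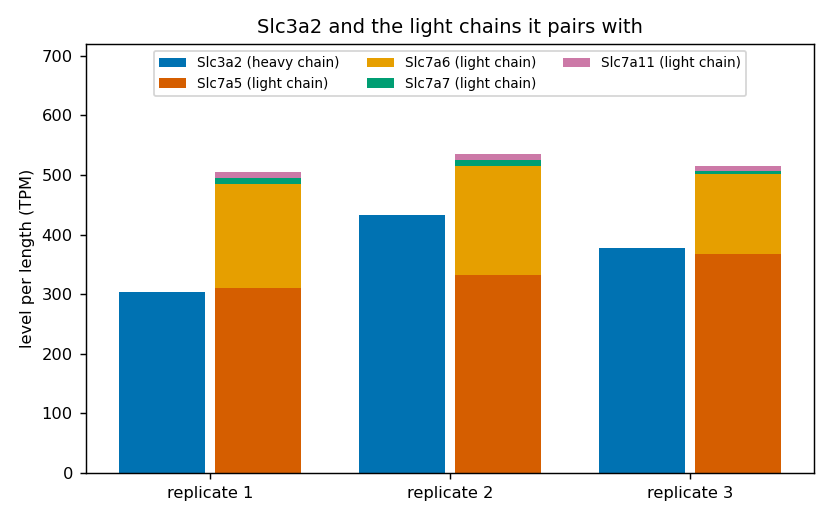
Level per exon length in TPM (y axis) of the heavy chain Slc3a2 beside the stacked levels of its detected light chains, for each replicate (x axis). Slc3a2 stood at 303 to 433 TPM and the light chains together at 506 to 535 TPM.

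The cationic carrier Slc7a1 had more counts than any other member. Slc7a1 (CAT1, chromosome 5, 148327410 to 148399904, minus strand), the widespread carrier of arginine, lysine and ornithine that needs no heavy chain, had 275, 293 and 295 counts, or 635, 607 and 661 CPM (mean 634 ± 27 CPM). Replicates lay within a narrow range. Per exon length it stood behind Slc3a2 and Slc7a5, at 202 ± 9.22 TPM. Slc7a2 (CAT2), the carrier known from liver and activated macrophages, had 0 counts, so that Slc7a1 was at least 228-fold higher per length. Slc7a3 (CAT3), known mainly from neurons, had 5, 0 and 5 counts (7.58 ± 6.57 CPM), with nothing in replicate 2. Slc7a4, a relative without established transport, had 2, 0 and 3 counts, and Slc7a14 had 0.

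In the SLC1 family the neutral exchangers were expressed and the glutamate carriers were not detected. Slc1a4 (ASCT1, chromosome 11, 20302180 to 20332713, minus strand), an exchanger of alanine, serine, cysteine and threonine, had 29, 35 and 36 counts, or 66.9, 72.5 and 80.6 CPM (mean 73.3 ± 6.91 CPM). Slc1a5 (ASCT2, chromosome 7, 16781340 to 16798274, plus strand), which also carries glutamine, had 24, 19 and 17 counts, or 55.4, 39.3 and 38.1 CPM (mean 44.3 ± 9.64 CPM). Slc1a5 had 0.564 times the counts of Slc1a4 per exon length (0.403 to 0.785) and was the lower gene in each library. Per length of the longest transcript the ratio was 0.839 (0.599 to 1.17), an interval on both sides of 1, and replicate 1 then had Slc1a5 higher.

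None of the 5 carriers of glutamate and aspartate reached 1 CPM. Slc1a3 (GLAST), an astrocyte carrier, had 1 count, in replicate 3. Slc1a1 (EAAC1), the glutamate carrier of the proximal tubule and of neurons, the astrocyte carrier Slc1a2 (GLT-1), Slc1a6 of Purkinje cells and Slc1a7 of the retina had 0 counts. Slc1a1 shares 31.0% of its 50-base stretches with other genes. This share takes in 2631 exon bases that overlap 4430402I18Rik (0 counts) on the opposite strand. Of 5 astrocyte markers only the gap junction gene Gja1 (106 ± 10.9 CPM), which epithelia also express, was detected, the summed level was 99.2 to 118 CPM, and Gfap and Aqp4 were among the 3 with 0 counts.

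Within SLC6, creatine and glycine carriers were expressed and the monoamine carriers had no counts. Slc6a8, the creatine carrier (chromosome X, 73673150 to 73682502, plus strand), had 44, 39 and 31 counts, or 102, 80.8 and 69.4 CPM (mean 83.9 ± 16.3 CPM). Slc6a9, the glycine carrier GlyT1 (chromosome 4, 117834506 to 117875198, plus strand), had 21, 23 and 28 counts, or 48.5, 47.6 and 62.7 CPM (mean 52.9 ± 8.49 CPM). Its exons overlap those of Ccdc24 (0 counts) and B4galt2 on the opposite strand, and its level is uncertain for this reason. The 26.3% of its 50-base stretches that other genes hold, matched on both strands, take in this overlap. Slc6a9 was at least 33.6-fold higher per length than Slc6a5 (GlyT2), the glycine carrier of inhibitory nerve endings, which had 0 counts.

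The carriers of noradrenaline (Slc6a2), dopamine (Slc6a3) and serotonin (Slc6a4) and the GABA carriers Slc6a11 and Slc6a13 had 0 counts in all 3 libraries. Of 10 neuronal markers only the tubulin Tubb3 was detected (14.1 ± 5.94 CPM), the summed level was 10.4 to 20.2 CPM, and Snap25, Gad1, Gad2, Th and Tph2 were among the 7 with 0 counts. The orphan carriers Slc6a16 and Slc6a21 also had none.

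The amino acid carriers of SLC6 were mostly without counts. Slc6a19 (B0AT1), the apical carrier of neutral amino acids of the proximal tubule and intestine, had 3, 2 and 7 counts, or 6.92, 4.14 and 15.7 CPM (mean 8.91 ± 6.02 CPM). Replicate 3 gave 7 of its 12 counts. Slc6a17, a carrier of synaptic vesicles, had 3, 1 and 1 counts. The proximal tubule carriers Slc6a18 (B0AT3), Slc6a20a and Slc6a20b (imino acids) had 0 counts, as did the brain proline carrier Slc6a7, the broad carrier Slc6a14 and the brain carrier Slc6a15. The 0 of Slc6a20a and Slc6a20b is less certain, as they share 26.7% and 27.9% of their 50-base stretches with other genes. For Slc6a20b this share takes in 1800 exon bases that overlap the expressed gene Sacm1l on the opposite strand. Slc6a19 was at least 3.53-fold higher per length than Slc6a18, which lies 1.72 kb away on the same strand. This bound leaves out the counting error of the 12 counts of Slc6a19. Lrp2 (215 ± 14.1 CPM), Aqp1 and Cubn were detected among 12 proximal tubule markers, whose summed level was 254 to 311 CPM, and the other 9, with Hnf4a, Slc34a1 and Slc5a2 among them, had 0 counts. Their part in the counts of Slc6a19 was not tested.

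In the proton-coupled SLC36 family the lysosomal carrier led. Slc36a1 (PAT1, chromosome 11, 55204350 to 55236330, plus strand), which exports small amino acids from lysosomes, had 13, 9 and 13 counts, or 30.0, 18.6 and 29.1 CPM (mean 25.9 ± 6.32 CPM). Slc36a4 (PAT4) had 0, 3 and 0 counts, all in replicate 2, and Slc36a1 had 13.6 times its counts per length (4.28 to 68.9). Slc36a2, a kidney carrier of glycine and proline, and Slc36a3 had 0 counts, although they lie beside Slc36a1, with 19.3 kb between Slc36a2 and Slc36a1.

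The sodium-coupled SLC38 family was expressed through its widespread and lysosomal members. Slc38a1 (SNAT1, chromosome 15, 96571418 to 96642913, minus strand), a system A carrier of glutamine and alanine, had 58, 85 and 61 counts, or 134, 176 and 137 CPM (mean 149 ± 23.6 CPM). It was at 31.8 ± 5.28 TPM per exon length and at 58.8 ± 9.64 TPM per length of its longest transcript, since its annotated exons cover 17236 bases and its longest transcript 7266. Slc38a4 (SNAT4), known from liver and placenta, had 1 count, in replicate 3, and Slc38a1 had 50.4 times its counts per exon length (8.95 to 2002), or 110.4 times per longest transcript. The system N carriers, which move glutamine, histidine and asparagine, were at the limit of detection, with 1, 0 and 1 counts for Slc38a3 (SNAT3), a carrier of the proximal tubule and liver, and 0 for Slc38a5.

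Slc38a10 (chromosome 11, 120103960 to 120151346, minus strand), a broadly expressed member, had 57, 58 and 55 counts, or 132, 120.1 and 123 CPM (mean 125 ± 5.90 CPM). Slc38a7 (chromosome 8, 95835920 to 95853539, minus strand), a lysosomal carrier of glutamine and asparagine, had 17, 29 and 22 counts, or 39.2, 60.1 and 49.3 CPM (mean 49.5 ± 10.4 CPM). Slc38a9 (chromosome 13, 112660751 to 112738749, plus strand), the lysosomal arginine sensor of the mTORC1 pathway, had 16, 16 and 8 counts, or 36.9, 33.1 and 17.9 CPM (mean 29.3 ± 10.1 CPM). Slc38a9 was below Slc38a7 in every library, with 0.146 times its counts per exon length (0.0962 to 0.219) or 0.220 times per longest transcript. Slc38a6 had 4, 2 and 1 counts, and it shares 35.5% of its 50-base stretches with other genes. Slc38a8 and Slc38a11 had 0.

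Of the SLC43 carriers only Slc43a2 had counts. Slc43a2 (LAT4, chromosome 11, 75531694 to 75577575, plus strand), which lets large neutral amino acids out of epithelial cells along their gradient, had 55, 71 and 50 counts, or 127, 147 and 112 CPM (mean 129 ± 17.6 CPM). The exons of Slc43a2 overlap 922 bases of Gm45606 (1, 1 and 2 counts) on the opposite strand. Slc43a1 (LAT3), of liver and podocytes, and Slc43a3, a carrier of purine nucleobases, had 0 counts. Slc43a2 was at least 33.4-fold higher than Slc43a1 per exon length, or 32.2-fold per longest transcript. The one member that is no transporter, Slc7a6os, had 9, 11 and 7 counts (19.7 ± 3.66 CPM) and lies 2.01 kb from Slc7a6 on the opposite strand.

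Ordered per exon length, Slc3a2 (371 ± 65.0 TPM) and Slc7a5 (338 ± 28.5 TPM) stood first with overlapping ranges. Slc7a1 (202 ± 9.22 TPM) and Slc7a6 (163 ± 26.7 TPM) followed, with library ranges that overlapped no neighbour. Per length of the longest transcript Slc7a5 (256 to 302 TPM) and Slc7a1 (244 to 266 TPM) overlapped, and Slc38a1 (58.8 ± 9.64 TPM) stood just after Slc6a8 (60.6 ± 10.9 TPM) and not at the end of the run that follows. A run from Slc38a10 (71.6 ± 2.47 TPM) through Slc1a4, Slc6a8, Slc43a2, Slc38a7, Slc1a5 and Slc6a9 to Slc38a1 (31.8 ± 5.28 TPM) had no gap between neighbours. Of the 23 neighbouring pairs among the 24 detected members, 18 had overlapping ranges, so most of this order is not resolved by these libraries.

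Pairs of related carriers were compared within libraries, as described above for each. Of 20 pairs 14 could be compared, and in each of the 14 the same gene was the higher one per exon length in all 3 libraries, with 0.5 counts added to both genes. In 8 of the 14 one gene had 0 counts in every library, so that their single direction says nothing about how well the libraries agree, and 6 pairs had counts for both genes. With 3 libraries 0.25 is the smallest p of the exact two-sided sign-flip permutation test, and each of the 14 pairs had it. The other 6 pairs had at most 3 counts for either gene. For Slc6a15 against Slc6a17 (0 against 5 counts) the limit set by 3 counts lay on either side of equality depending on the length used, so no order is given.

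**Figure D4:**
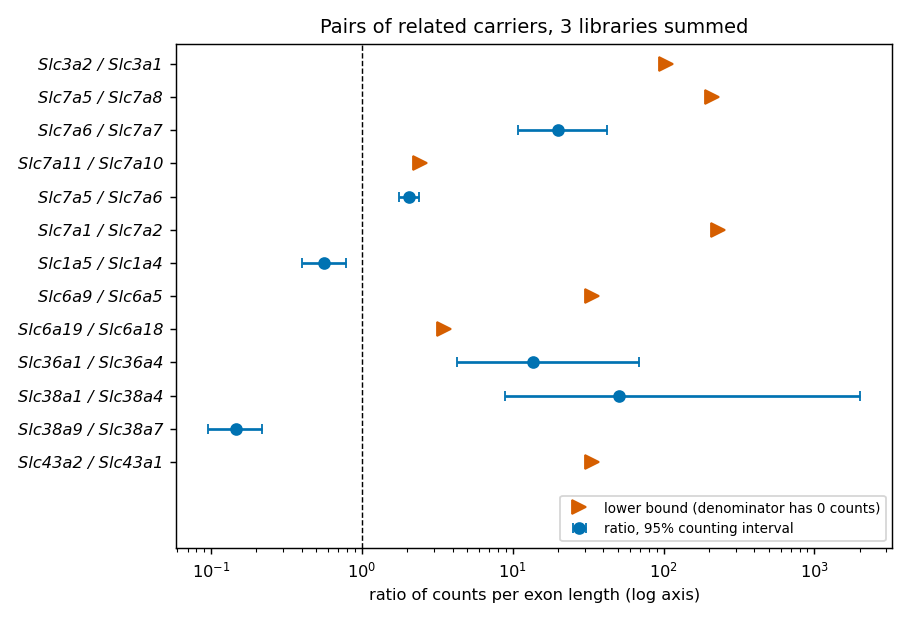
Ratio of counts per exon length over the 3 libraries together (x axis, log scale) for 13 pairs of related carriers (y axis). Circles carry 95% exact binomial intervals. Triangles are lower bounds against a gene with 0 counts and leave out the counting error of the other gene. Only Slc1a5 against Slc1a4 (0.564) and Slc38a9 against Slc38a7 (0.146) lay below 1.

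The CpG content of the transcript starts was compared between members with and without counts. CpG-rich starts are known to be common in broadly expressed genes. Over the first 200 transcribed bases the median observed over expected CpG was 0.768 in the 16 members at 10 CPM or more, against 0.836 in the 8949 other protein-coding genes at that level that had such a sequence. In the 35 members with no count it was 0.608, against 0.293 in 9841 other protein-coding genes with no count. A ratio of at least 0.6 was found in 12 of 16 members at 10 CPM or more (75.0%, against 79.6% of the other genes) and in 18 of 35 members with no count (51.4%, against 20.4%). Among these 18 were Slc6a11 (1.16), Slc1a1 (0.927), Slc7a2 (0.882), Slc43a1 (0.847) and Slc7a8 (0.734), named after their values were seen. Among the expressed members Slc7a5 stood highest at 1.37 and Slc38a9 lowest at 0.291. This is a description over genes, which are not replicates, and was not tested.

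**Figure D5:**
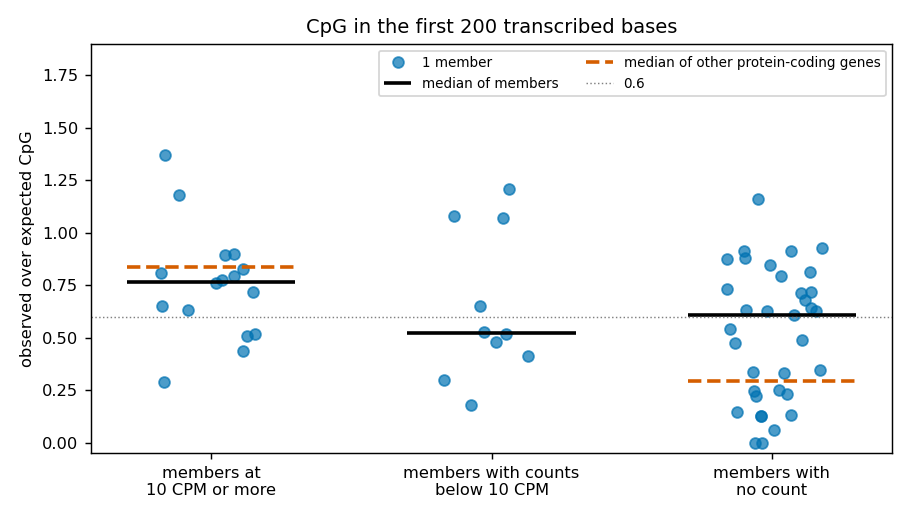
Observed over expected CpG in the first 200 transcribed bases (y axis) for members at 10 CPM or more, members with counts below 10 CPM and members with no count (x axis), with 1 point per member. Black bars are medians of members (0.768, 0.525 and 0.608) and dashed bars medians of other protein-coding genes at 10 CPM or more (0.836) and with no count (0.293).

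Genes that act together with these carriers were described from lists drawn up by function. Beside the counts of each list stand the shares of all protein-coding genes, of which 50.6% were detected and 40.8% reached 10 CPM. All 15 measured genes of the amino acid response list were detected and all 15 reached 10 CPM, with a median of 124 CPM. The list holds genes of the ATF4 programme that the kinase GCN2 (Eif2ak4) sets off when amino acids are short. It also holds upstream parts, namely Eif2ak4 itself, Gcn1l1 and Eif2s1. Most counts fell on the serine synthesis enzyme Psat1 (213, 322 and 262 counts, 582 ± 87.8 CPM), asparagine synthetase Asns (226, 263 and 231 counts, 528 ± 14.7 CPM), the GCN2 activator Gcn1l1 (469.8 ± 10.3 CPM) and Atf4 itself (437 ± 23.8 CPM). Fewer counts fell on other members, among them Cebpb (128 ± 44.0 CPM, 313 ± 111 TPM). Trib3 (90.5 ± 13.1 CPM), Chac1 (40.4 ± 8.59 CPM) and Ddit3 (12.5 ± 1.32 CPM) were also among these. Per exon length the mean of Trib3 (157 ± 23.7 TPM) was above that of Gcn1l1 (97.1 ± 3.05 TPM). Chac1 was at 90.8 ± 18.3 TPM and Ddit3 at 26.8 ± 2.51 TPM. With 1 condition it cannot be said whether these levels are raised.

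All 32 genes of lysosomal amino acid sensing, the Rag GTPases, Ragulator and GATOR complexes through which amino acids act on mTORC1, were detected, and 28 reached 10 CPM, with a median of 41.9 CPM. Fnip2 (208 counts, 152 ± 24.2 CPM), Fnip1 (186 counts, 136 ± 13.4 CPM) and Seh1l (185 counts, 136 ± 27.9 CPM) had the most counts. Rptor (116 ± 13.4 CPM) and Rragc (115 ± 21.4 CPM) followed with 157 counts each. Per exon length the mean of Rragc (127 ± 25.1 TPM) was above those of Fnip2 (67.1 ± 11.5 TPM) and Fnip1 (70.4 ± 7.73 TPM). The arginine sensor Castor1 had 3 counts, all in replicate 3, and its paralogue Castor2 had 85.

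Of 19 enzymes that use glutamine, cystine and creatine 16 were detected, with a median of 29.4 CPM. Glud1 (328 ± 20.5 CPM), which makes 2-oxoglutarate from glutamate, and Aldh18a1 (303 ± 55.9 CPM), of proline synthesis, had the most counts, followed by the mitochondrial aspartate aminotransferase Got2 (239 ± 25.2 CPM). Of creatine synthesis, the first enzyme Gatm had 0 counts and the second, Gamt, had 4, 0 and 2 counts (4.57 ± 4.62 CPM). The creatine kinases Ckm and Ckmt1 had 0 counts, and Ckb had 4, 6 and 3 (9.46 ± 2.86 CPM).

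Of 16 other amino acid carriers and accessory proteins in the count table, 9 were detected, beside 50.6% of all protein-coding genes. The median over the 16 was 2.98 CPM. Basigin (Bsg), a chaperone of monocarboxylate carriers, was at 459 ± 49.0 CPM, and Slc16a10 (TAT1), the exit path for aromatic amino acids, at 103 ± 16.2 CPM. The acetyl-CoA carrier Slc33a1 (59.8 ± 10.6 CPM) came next by counts, and the lysosomal cysteine carrier component Mfsd12 (50.7 ± 0.915 CPM) and the lysosomal histidine carrier Slc15a4 (50.6 ± 11.3 CPM) had 69 counts each. The vesicle carriers Slc32a1, Slc17a6 and Slc17a8 of nerve endings were among the 6 with 0 counts.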

How the data were processed

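Total RNA (500 ng) of 3 replicates was fragmented to about 300 bp and sequenced, per the labels. The deposited counts are whole numbers of reads per Ensembl gene, not normalised. The submitters' processing notes name mm10 (GRCm38), STAR and HTSeq. Their versions and strand setting, and how reads with several matches were handled, were not stated there, so overlapping genes and near-identical copies may have lost counts. Libraries held 436983 to 482418 counts, at which 1 count is worth 2.07 to 2.31 CPM.

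Symbols, positions and lengths came from GENCODE M21 (55227 of 55487 identifiers matched). CPM used edgeR 4.0.16 trimmed-mean library sizes under R 4.3.3, and TPM the union of annotated exons. Replicates were compared gene by gene with a chi-square test across all 12473 detected genes (Benjamini-Hochberg, threshold 0.05). On simulated counts, with changes placed only in genes of at least 20 CPM, the test missed many of the smaller changes. A gene that did not pass is thus not shown to be equal between replicates. Pairs were compared as log2 ratios of counts + 0.5 per exon length with an exact sign-flip permutation test. Counts summed over libraries gave pair ratios, with 95% exact binomial intervals where both genes had counts. For a gene at 0, 3 counts over all libraries stood in and no interval was computed. Such a bound leaves out the counting error of the other gene. The rest used Python 3.11.15 with scipy 1.17.1, pandas 2.3.3, matplotlib 3.10.9 and numpy 2.4.6. CpG content was taken from the first 200 bases of the lowest-numbered protein-coding transcript of each gene.

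The members and lists were chosen with earlier results of these data known. By rule, values per library are given for members of at least 20 CPM and for pair members of at least 1 CPM, ranges or counts for other members, and the 4 highest and up to 4 genes without counts of each list. Other genes named beside these (Slc7a4, Slc38a6, Slc7a6os, Cebpb, Eif2s1, Trib3, Chac1, Ddit3, Castor1, Castor2, Rragc, Slc15a4, Gamt, Ckb and marker genes) were added after their values were seen. A few genes under this rule are not reported here. Alternatives were DESeq2 1.42.0 size factors, library totals, other thresholds, pseudocounts and lengths, and leaving out each replicate.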

Additional observations from a re-analysis of the deposited data

How the results depend on the processing

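The number of detected members was 24 and ranged from 20 at a threshold of 5 CPM to 26 at 0.5 CPM or at any count. It was 24 with DESeq2 size factors and with library totals, 22 without members that share at least 20% of their 50-base stretches, and 24 to 26 with a replicate left out. The number at 10 CPM or more was 16 with both other scalings, 14 at 10 TPM, and 16 to 18 with a replicate left out, the 18 arising without replicate 2. No member passed the replicate test under any of the settings run, with 0 to 2 members at an unadjusted p under 0.05 and a lowest adjusted p of 0.731 to 0.902. The median over members was 0 CPM throughout. Levels of the 15 members of at least 20 CPM moved by less than their SD in all 75 recomputed values. Leaving out a replicate cannot move a mean over 3 libraries by as much as its SD. For those values the outcome was fixed in advance, and only the other scalings could have shown a move. The number of pairs with one direction in every library was 13 per longest transcript, where Slc1a5 to Slc1a4 lost it, and 14 under the other settings, 8 of them with one gene at 0 counts. Of the recomputed mean log2 ratios 65 moved by less than their SD and 33 by more, with the pseudocount or the length used, and 0 changed sign. Among the 65 are all values with a replicate left out, for which this was likewise fixed in advance. Of the expressed members 14 and 9 had a CpG ratio of at least 0.5 and 0.75, a choice made after seeing the data. The planned CpG share over RefSeq promoters was not run, as 44 of 61 members had one. No paired analysis was possible because the labels give 1 group. Depth limits the 35 members at 0 counts, which may each have had up to 2.20 CPM.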
